A study of Mus musculus with 2 samples.

Results

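The genes described here are Cd8a and Cd8b1, which encode the alpha and beta chains of the CD8 co-receptor, and Cd5 and Cd6, which encode a pair of related surface receptors of T cells. They were listed by name, and all 4 were found among the 33696 genes of the deposited matrices (ENSMUSG00000053977, ENSMUSG00000053044, ENSMUSG00000024669 and ENSMUSG00000024670). Their UMIs, the counts of distinct captured RNA molecules, were read in splenic CD8 T cells of wild-type C57BL/6 mice. Mice of the DHEA group were injected under the skin each day for 21 days with dehydroepiandrosterone, a steroid precursor of androgens, at 40 mg/kg in 20 µL of sesame oil, which serves as a mouse model of polycystic ovary syndrome. Mice of the CTRL group had the same volume of oil on the same schedule. The 2 groups share strain, genotype, vehicle and bead isolation of CD8 T cells. Each group is 1 library of 10x Genomics 3' single-cell RNA sequencing from pooled cells, and neither the number of animals nor the age or sex is given in the sources used here. No difference between the libraries therefore has a replicate check, no test was run, and all intervals are exact 95% intervals that cover counting error only.

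The CD8 co-receptor binds the MHC class I molecule that presents the antigen and brings the kinase LCK to the T cell receptor. The alpha chain can pair with the beta chain or with another alpha chain, and the alpha-alpha form is known from innate-like and intestinal T cells, where the beta chain is low. CD5 and CD6 are scavenger receptor family members that associate with the T cell receptor and tune its signal. The surface level of CD5 on naive T cells is known to follow the strength of self-recognition, and CD6 binds the adhesion molecule ALCAM. Ly6c2, which encodes a surface protein of memory CD8 T cells, and Ccl5, a chemokine they store, are used below to divide the cells.

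Cd8b1 and Cd8a are neighbours on chromosome 6 with no gene starting between them in the RefSeq table of GRCm38.p6. Cd5 and Cd6 lie on chromosome 19 with 1 gene, A430093F15Rik, between them, which overlaps neither. RefSeq promoter windows of 250 bases before to 50 after the start were matched for 2 of the 4, Cd8a and Cd5. They are shown as the windows at hand for the 2 loci. The Cd8a window is chr6:71373177-71373476 on the plus strand and the Cd5 window chr19:10738925-10739224 on the minus strand, both in GRCm38.p6, with matches to the searched motifs in capitals.
Cd8a: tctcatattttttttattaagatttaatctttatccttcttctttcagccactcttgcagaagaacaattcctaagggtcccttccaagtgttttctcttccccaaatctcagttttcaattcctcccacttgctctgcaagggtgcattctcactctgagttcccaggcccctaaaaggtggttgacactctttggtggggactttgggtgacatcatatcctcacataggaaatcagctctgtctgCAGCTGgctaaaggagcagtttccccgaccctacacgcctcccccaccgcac
Cd5: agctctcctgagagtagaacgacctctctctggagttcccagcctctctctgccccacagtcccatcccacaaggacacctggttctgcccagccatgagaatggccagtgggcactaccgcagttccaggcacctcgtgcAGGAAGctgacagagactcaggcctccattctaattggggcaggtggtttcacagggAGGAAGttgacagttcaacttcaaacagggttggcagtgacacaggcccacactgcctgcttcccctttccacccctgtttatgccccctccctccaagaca
Both strands were searched for 7 motifs, and no match overlapped another. The E-box word CAGCTG, present in 16.4% of the 32544 windows of the table, was found 1 time in the Cd8a window. The ETS word AGGAAG, present in 35.1% of windows, was found 2 times in the Cd5 window. Neither window held the RUNX word TGTGGT, which is in 16.7% of windows, the other ETS word CCGGAA, which is in 14.98%, or the GATA word AGATAA, which is in 11.2%. The same was true of the TCF/LEF word CTTTGA, which is in 16.0%, and of the TATA word TATAAA, which is in 13.6%.

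Cells with at least 200 genes, under 10% mitochondrial UMIs and a UMI of Cd3d, Cd3e or Cd3g were used, 9120 of CTRL and 11371 of DHEA. They held 50971281 and 51982004 UMIs, with medians of 5556.5 and 4335 per cell, so the DHEA cells were shallower. Levels are UMIs in each 1000000 UMIs (CPM) summed over the cells, and since 3' capture differs between genes they are compared between libraries and states, not between genes. The 2 libraries had 51 barcodes in common, and without these the log2 ratios of DHEA over CTRL given below were 0.26 for Cd8a, 0.31 for Cd8b1, 0.21 for Cd5 and -0.05 for Cd6. Of the defining genes of CD8 T cells beside the 4, Cd3e stood at 661 and 702 CPM, and Cd4 had 7 UMIs over all CTRL cells and 4 over all DHEA cells. The summed level of 6 markers of NK cells was 55.8 (CTRL) and 97.7 CPM (DHEA), and that of 4 neutrophil markers 0.0785 and 9.70. The 9 B cell markers summed to 268 and 289 CPM with 2 of them at 0 UMIs in each library, and the 8 myeloid markers to 213 and 217. The part of these markers in the levels below was not tested.

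Both chains of the CD8 co-receptor stood higher in the DHEA library, Cd5 was higher by less, and Cd6 was level. Cd8a had 17218 UMIs in CTRL and 20985 in DHEA, or 338 and 404 CPM, a log2 ratio of DHEA over CTRL of 0.26 (0.23 to 0.29). Cd8b1 stood at 983 (CTRL) and 1219.5 CPM (DHEA) (log2 ratio 0.31, 0.29 to 0.33). Cd5 stood at 143 and 164 CPM (0.20, 0.16 to 0.25). Cd6, at 107 (CTRL) and 103 CPM (DHEA), had a log2 ratio of -0.05 whose interval reached zero (-0.11 to 0.00). None of the 4 was 1.5-fold apart between the libraries. Of 10623 genes with at least 200 UMIs, 3.21% were, with 1.74% higher and 1.47% lower in DHEA. Ranked among these genes, the ratio of Cd8b1 was at percentile 92.8, Cd8a at 89.4, Cd5 at 84.7 and Cd6 at 40.6. The CD3 chains that anchor the T cell receptor were also higher, with log2 ratios of 0.20 for Cd3g, 0.16 for Cd3d and 0.09 for Cd3e.

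The share of cells with a UMI went the other way until depth was made equal. As sequenced, 75.9% (75.0 to 76.7) of the CTRL cells had a Cd8a UMI, against 72.5% (71.6 to 73.3) in DHEA. After each cell was thinned to 1000 UMIs, leaving out 19 CTRL and 230 DHEA cells below that depth, it was seen in 28.0% and 33.1%. Cd8b1 went from 93.2% and 90.8% as sequenced to 60.3% and 67.0% when thinned, and Cd5 from 46.5% and 44.0% to 12.7% and 14.6%. Cd6 was in 39.6% of CTRL and 32.7% of DHEA cells as sequenced and in 9.72% and 9.42% when thinned. Cells that should lack these genes, those with no CD3 UMI and at least 2 of Lyz2, a gene of myeloid cells, numbered 3 in CTRL and 1 in DHEA at median depths of 11114 and 9260 UMIs. They held 0 UMIs of each of the 4 genes, too few cells to set a background. Cells with no CD3 UMI and no Lyz2 UMI, 86 and 298 at median depths of 1718 and 1113.5, did carry Cd8b1, at 434 and 605 CPM.

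Divided by depth instead, both CD8 chains were higher in DHEA in each of 5 ranges of UMIs per cell. Between 4000 and 6000 UMIs, Cd8a stood at 368 (CTRL) and 426 CPM (DHEA), and Cd8b1 at 1056 and 1287. Above 8000 UMIs, Cd8b1 stood at 871 CPM and 1142. The gap in Cd8a was widest in cells under 2000 UMIs, 281 CPM in 296 CTRL cells against 472 in 2200 DHEA cells. Cd5 over all cells was higher in DHEA in 5 of 5 ranges with the intervals of the 2 levels apart in 3. Above 8000 UMIs the Cd5 levels overlapped in their intervals, while the log2 ratio of 0.12 (0.03 to 0.22) lay above zero. Cd6 was higher in 2 of 5 ranges. Between 4000 and 6000 UMIs its log2 ratio of -0.15 (-0.27 to -0.04) lay below zero, while its levels overlapped in their intervals.

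The cells were then clustered without the 4 genes, the CD3 genes, Ly6c2 or Ccl5, so none of these placed a cell. The 14 clusters include 4 large unnamed ones (clusters 0 to 3, with 6028 CTRL and 6473 DHEA cells). Of these, cluster 1 had 5 of 12 naive markers and 6 of 8 NF-kB markers over 1.5-fold their level in other clusters and was led by Igf1r and Kif1b, and cluster 3 was led by the heat shock genes Hspa1b and Hspa1a. Memory-like cells (clusters 4 to 6, 1572 and 2914 cells) carried Cxcr3, Eomes and Tbx21. Cluster 7, the innate-like cluster below, carried these genes too, with 11 of 13 memory markers over 1.5-fold their level in other clusters. The memory list used for naming also holds Ly6c2 and Ccl5. Cluster 6, which also had NK receptor genes among its leading genes, made up 263 of the CTRL and 993 of the DHEA memory-like cells. Smaller clusters were innate-like (7, with Ikzf2 and Klra genes, 337 and 377 cells), effector-like (8, Gzma and Gzmb, 201 and 504), interferon-responding-like (11, 262 and 177), early-activated-like (12, Egr3 and Tnfrsf9, 168 and 137) and NKT- or MAIT-like (13, Zbtb16 and Klrb1c, 87 and 139). Cluster 8 also held dividing cells, with all 10 proliferation markers over 1.5-fold their level in other clusters. Of these, 3 (Pclaf, Ube2c and Birc5) were among its 10 leading genes. Past 1.5-fold in cluster 8 were also 3 of 3 neutrophil, 4 of 6 myeloid and 2 of 3 CD4 T cell markers. In cluster 13, beside 4 of 4 NKT or MAIT markers, 3 of 3 detected CD4 T cell, 10 of 13 memory and 6 of 12 interferon markers were past 1.5-fold. The gamma-delta T cell receptor gene Trdc was past it there too. Clusters 9, led by nuclear transcripts such as Gphn with a median of 8.03% ribosomal protein UMIs, and 10, led by Hdac9 and Myb, stayed unnamed.

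**Figure D1:**
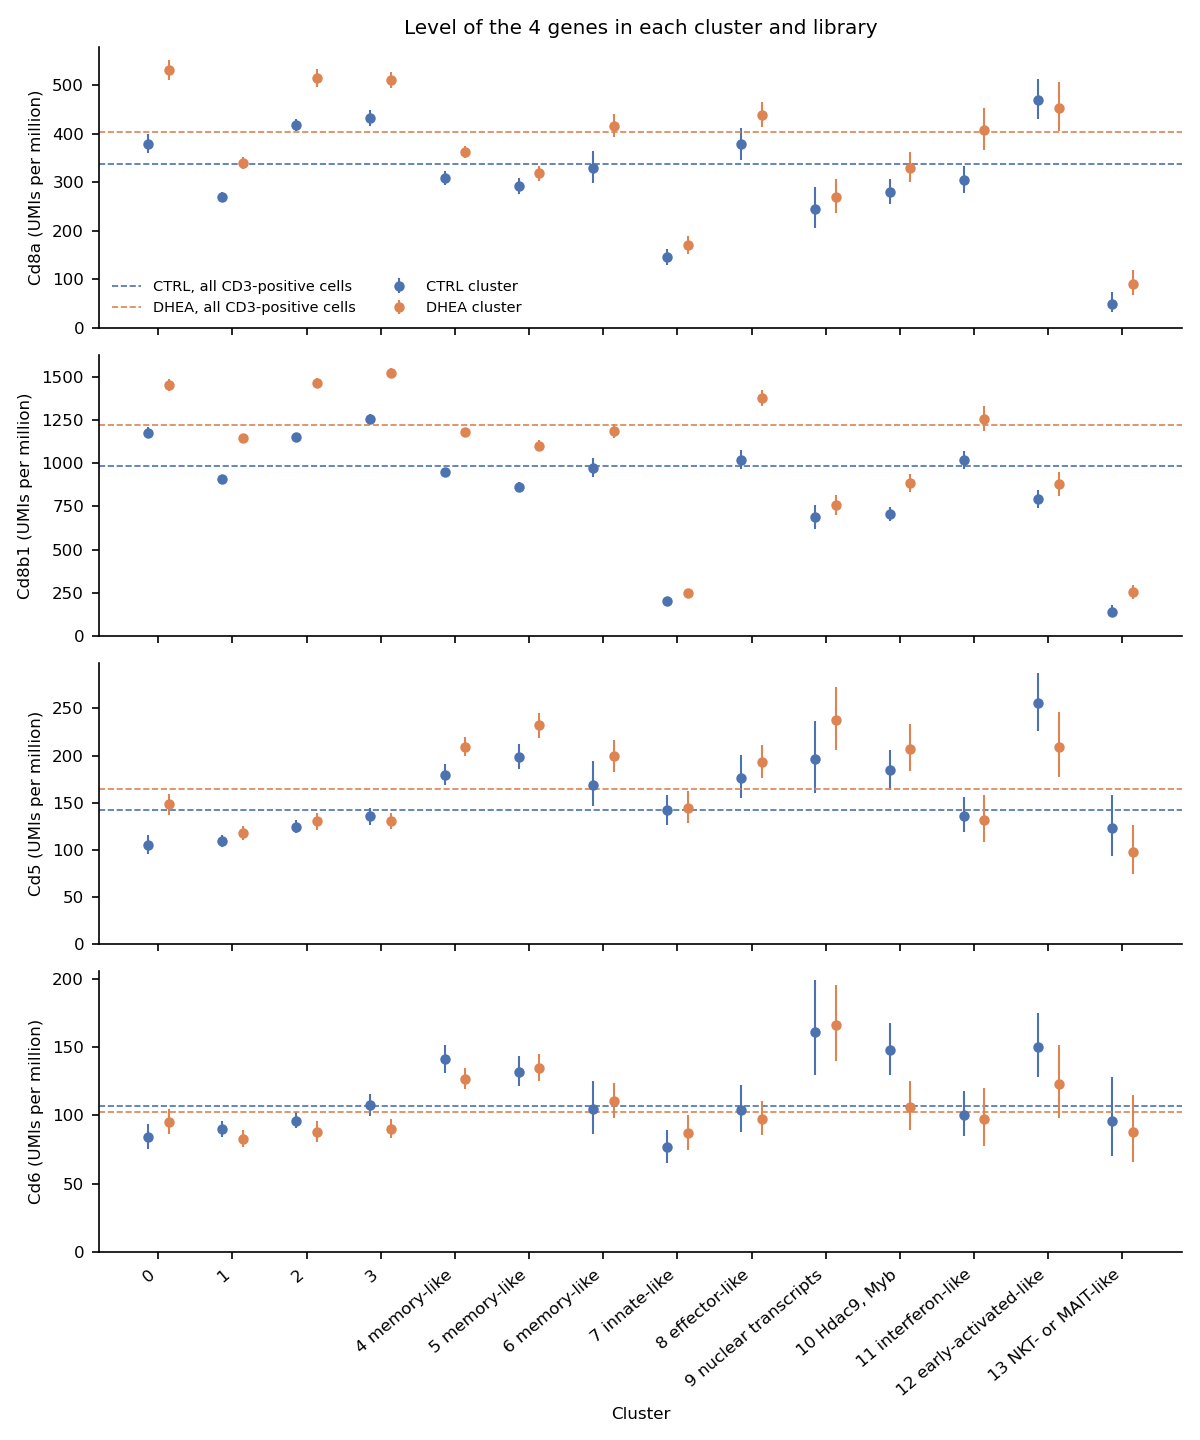
Level of Cd8a, Cd8b1, Cd5 and Cd6 in CPM (vertical axes) in each of the 14 clusters (horizontal axis). Points are clusters of the CTRL (blue) and DHEA (orange) library with exact 95% Poisson intervals, and dashed lines are the levels over all CD3-positive cells. Both CD8 chains are lowest in clusters 7 and 13, where Cd5 and Cd6 are not set apart in the same way, and the DHEA points of Cd8b1 lie above the CTRL points in all 14 clusters.

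Both CD8 chains were low in the innate-like and the NKT- or MAIT-like cluster and highest in clusters 0, 2 and 3 and, for Cd8a, in early-activated-like cells. In CTRL, Cd8a ran from 50.01 CPM in NKT- or MAIT-like and 146 in innate-like cells through 246 in cluster 9 to 432 in cluster 3 and 469 in early-activated-like cells, a span of 9.37-fold. The lowest 3 were apart in their intervals, while neighbours from the highest down to cluster 2, and from cluster 0 down to cluster 9, overlapped. In DHEA, Cd8a ran from 91.1 CPM in NKT- or MAIT-like cells to 531 in cluster 0, and clusters 0, 2, 3 and 12 followed each other with overlapping intervals. Cd8b1 spanned 8.98-fold in CTRL, from 140 CPM in NKT- or MAIT-like and 202 in innate-like cells to 1254 in cluster 3. In DHEA its lowest clusters were innate-like at 251 CPM and NKT- or MAIT-like at 253, which overlapped, and its highest was cluster 3 at 1525.

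Cd5 and Cd6 spanned little more than 2-fold and had another order. Cd5 was lowest in CTRL in cluster 0 at 105 CPM and cluster 1 at 109, and highest in early-activated-like cells at 256 (226 to 287). These stood apart from the next, memory-like cluster 5 at 199, but overlapped cluster 9 at 196 (161 to 237). In DHEA Cd5 was lowest in NKT- or MAIT-like cells at 97.7 CPM and highest in cluster 9 at 238, with memory-like cluster 5 next at 232. In DHEA the 7 highest clusters, down to the effector-like at 193 CPM, lay apart from the rest, of which cluster 0 was next at 148. Cd6 was highest in cluster 9 in both libraries, at 161 and 166 CPM, and lowest in innate-like cells in CTRL (76.7 CPM) and in cluster 1 in DHEA (82.7). The highest over the lowest cluster was 2.43 for Cd5 in each library, and for Cd6 it was 2.10 in CTRL and 2.00 in DHEA.

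Set against clusters 0 to 3, memory-like cells had less of the CD8 chains and more Cd5 and Cd6 in both libraries. Cd8a stood at 368 CPM in clusters 0 to 3 and 304 in memory-like cells of CTRL, and at 459.9 and 357 in DHEA, log2 ratios of -0.27 and -0.36. Cd8b1 gave -0.26 and -0.25. Cluster 1 did not share the higher CD8 levels of clusters 0, 2 and 3. In CTRL its Cd8a stood at 268.5 CPM, below memory-like clusters 4 (309), 5 (291, with overlapping intervals) and 6 (330). Its Cd8b1 in CTRL, at 911 CPM, lay between clusters 5 (864) and 4 (948). In DHEA its Cd8a (339 CPM) and Cd8b1 (1147 CPM) lay among the levels of the memory-like clusters. Cd5 stood at 119 and 186 CPM in CTRL and at 129.6 and 215 in DHEA, log2 ratios of 0.64 (0.56 to 0.72) and 0.73 (0.66 to 0.80). Cd6 stood at 95.0 and 134 CPM in CTRL and 88.2 and 126 in DHEA (0.49 and 0.52). Cd5 alone of the 4 passed 1.5-fold here, in both libraries, where 3.4% of 9048 genes in CTRL and 4.11% of 9059 in DHEA were that much higher in memory-like cells. The CTRL interval of Cd5 reached below 1.5-fold, which is 0.58 on the log2 scale, and at a clustering resolution of 0.5 Cd5 in CTRL stood at 0.55 and no longer passed, while Cd8a in CTRL stood at -0.43 and Cd8b1 at -0.49.

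In innate-like cells the beta chain was reduced more than the alpha chain. Cd8b1 stood at 202 (CTRL) and 251 CPM (DHEA), against 1098 and 1378 in clusters 0 to 3 (log2 ratios -2.44 and -2.45), and Cd8a at 146 and 169.9 (-1.33 and -1.44). Both passed 1.5-fold, and genes that much lower in innate-like cells made up 5.37% of 8644 genes in CTRL and 5.11% of 8401 in DHEA. Cd5 in innate-like cells gave 0.25 (0.08 to 0.42) in CTRL and 0.16 (-0.02 to 0.33) in DHEA, and Cd6 was lower in CTRL (-0.31, -0.54 to -0.09) but level in DHEA (-0.02, -0.25 to 0.20). The innate-like cells with a UMI of Trdc, a gamma-delta T cell receptor gene, were 38 in CTRL and 28 in DHEA, with Cd8b1 at 78.0 and 85.8 CPM. In the innate-like cells without Trdc, Cd8b1 stood at 216 and 266 CPM and Cd8a at 154 and 179.9.

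Early-activated-like cells combined high Cd8a with reduced Cd8b1 and the most Cd5 of CTRL. Their Cd8a stood at 469 (CTRL) and 454 CPM (DHEA) and their Cd8b1 at 792 and 877. Over clusters 0 to 3 the log2 ratio of Cd8a was 0.35 (0.22 to 0.48) in CTRL and -0.02 (-0.19 to 0.14) in DHEA, while that of Cd8b1 was -0.47 and -0.65. Cd5 was 1.10 higher on the log2 scale in CTRL and 0.69 in DHEA, and Cd6 0.66 and 0.48. Past 1.5-fold were Cd5 in both libraries and Cd6 in CTRL, beside 14.3% of 8560 genes higher in CTRL and 15.9% of 8276 in DHEA, and, downward, Cd8b1 in DHEA, beside 18.7%. Cd5 was also higher in effector-like cells (0.56 and 0.57), the cluster with the proliferation markers, whose part in this value was not tested, in cluster 9 (0.71 and 0.88) and in cluster 10 (0.62 and 0.68). NKT- or MAIT-like cells had both CD8 chains about equally low, at -2.88 for Cd8a and -2.98 for Cd8b1 in CTRL and -2.34 and -2.44 in DHEA. This cluster also had CD4 T cell markers past 1.5-fold, whose part in these values was not tested.

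Within clusters, Cd8b1 was higher in DHEA in all 14, with 12 intervals above zero, and Cd8a in 13 of 14, with 11. The exceptions to an interval above zero for Cd8b1 were cluster 9 (0.14, -0.04 to 0.33) and early-activated-like cells (0.15, -0.00 to 0.30), and Cd8a was not higher in early-activated-like cells (-0.05, -0.25 to 0.16). The median over clusters was a log2 ratio of 0.24 for Cd8a and 0.32 for Cd8b1. The highest ratios were in NKT- or MAIT-like cells, with 24 and 55 UMIs of Cd8a (0.87, 0.15 to 1.62) and 67 and 153 of Cd8b1 (0.86, 0.44 to 1.30). In clusters 0 to 3 together, where 1.98% of 9558 genes were 1.5-fold apart, Cd8a gave 0.32, Cd8b1 0.33, Cd5 0.12 and Cd6 -0.11. In memory-like cells, where 2.16% of 8239 genes were 1.5-fold apart, the 4 gave 0.23, 0.33, 0.21 and -0.08. None of the 4 was 1.5-fold apart in either.

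Cd5 was higher in DHEA in 10 clusters and lower in 4, but only 3 intervals lay above zero. These were cluster 0 (105 and 148 CPM, log2 ratio 0.50, 0.32 to 0.67) and memory-like clusters 4 (179 and 209.6 CPM, 0.22) and 5 (199 and 232 CPM, 0.22). Cluster 0 was also the shallowest of clusters 0 to 3, with medians of 2866 UMIs per cell in CTRL and 1831 in DHEA. In clusters 0 to 3 together, the Cd5 ratio was lower in deeper cells. It was 0.76 (0.17 to 1.40) under 2000 UMIs, 0.26 between 2000 and 4000, and 0.14 between 4000 and 6000. Between 6000 and 8000 UMIs it was 0.08 (-0.03 to 0.19), and above 8000 it was -0.09 (-0.32 to 0.14). The part of depth in the Cd5 values of cluster 0 was not tested. Cd6 was lower in 9 clusters and higher in 5, with 3 intervals below zero. Cluster 10 had the largest of these, with Cd6 at 148 (CTRL) and 106 CPM (DHEA) (-0.48, -0.79 to -0.18). Cluster 10 also had Alcam, the gene of the CD6 ligand, among its 10 leading genes. The others were cluster 3 (107 and 90.1 CPM, -0.25) and memory-like cluster 4 (141 and 126 CPM, -0.16).

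The ratio of Cd8a to Cd8b1 UMIs sets the alpha against the beta chain within the same cells, and is not a ratio of molecules. It was 0.344 (0.338 to 0.350) in CTRL and 0.331 (0.326 to 0.336) in DHEA over all cells. Innate-like cells had 0.724 (0.626 to 0.837) in CTRL and 0.676 (0.588 to 0.776) in DHEA, and early-activated-like cells 0.592 and 0.517, the highest of the 14 clusters in both libraries. All other clusters lay between 0.289 and 0.397. NKT- or MAIT-like cells, although low in both chains, had 0.358 (0.215 to 0.579) in CTRL and 0.359 (0.259 to 0.492) in DHEA. These values were close to the ratio over all cells. The intervals were wide, and that of CTRL overlapped the interval of early-activated-like cells (0.529 to 0.661). Between the libraries the ratio was lower in DHEA in 9 clusters and higher in 5. Its intervals parted upward in cluster 0 (0.322 and 0.365) and downward in memory-like cluster 5 (0.337 and 0.289). The part of depth in the cluster 0 ratio was not tested.

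**Figure D2:**
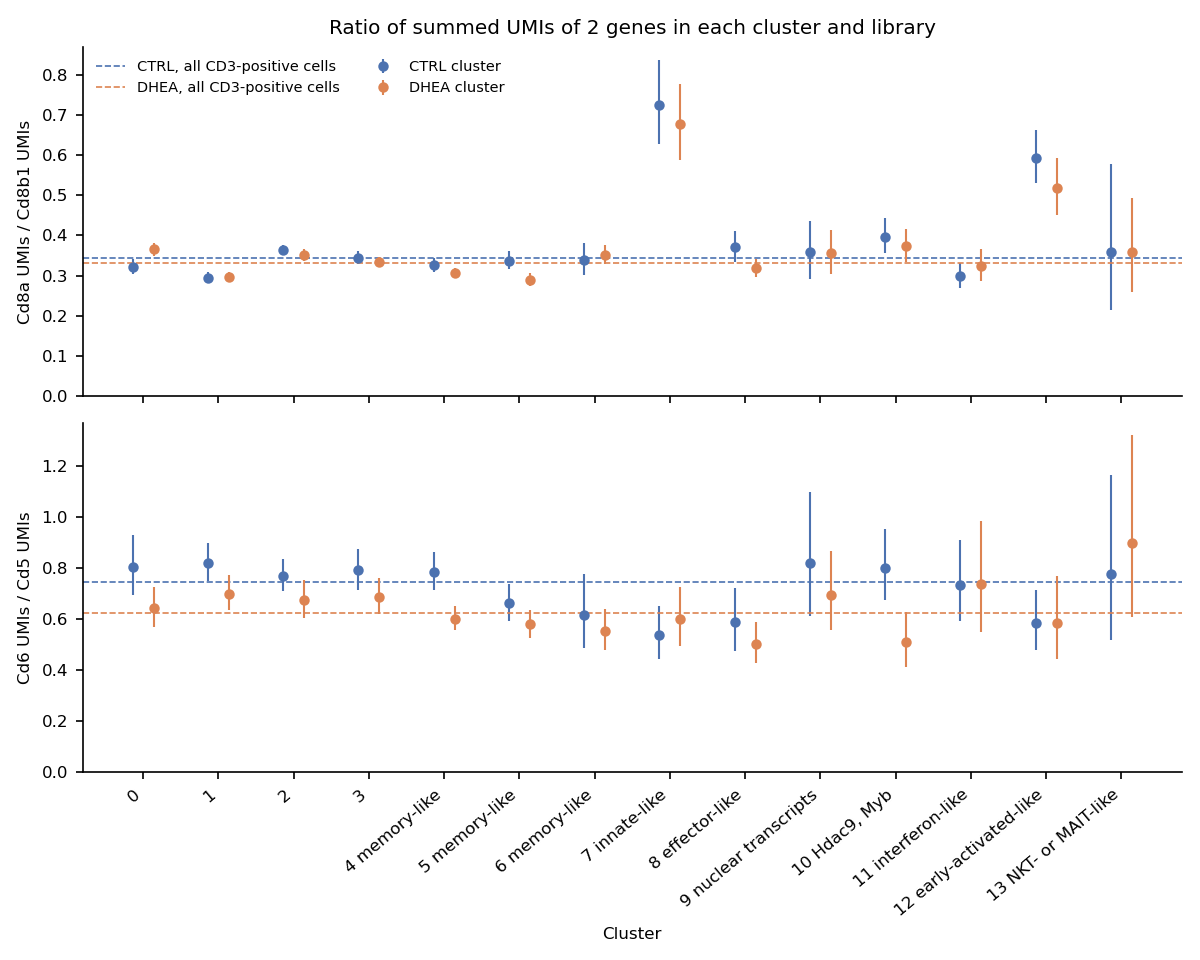
Ratio of summed Cd8a to Cd8b1 UMIs (top) and of Cd6 to Cd5 UMIs (bottom) in each of the 14 clusters, with exact 95% binomial intervals, for CTRL (blue) and DHEA (orange), dashed lines marking all CD3-positive cells. The innate-like (7) and early-activated-like (12) clusters stand above the others in the upper panel, and most DHEA points lie below the CTRL points in the lower panel.

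The ratio of Cd6 to Cd5 UMIs was 0.746 (0.720 to 0.773) in CTRL and 0.626 (0.604 to 0.647) in DHEA. It was lower in DHEA in 11 of 14 clusters, with intervals apart in 2 of them, memory-like cluster 4 (0.785 and 0.603) and cluster 10 (0.803 and 0.511). It was higher in the other 3, innate-like (0.539 and 0.601), interferon-responding-like (0.736 and 0.739) and NKT- or MAIT-like cells (0.780 and 0.898). In clusters 0 to 3 together it stood at 0.795 and 0.680, and in memory-like cells at 0.719 and 0.588.

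Per cell, thinned to 2000 UMIs, UMIs of both CD8 chains were seen in 40.2% of CTRL and 47.1% of DHEA cells. This left out 296 CTRL and 2200 DHEA cells that were shallower. In clusters 0 to 3 they were seen in 43.5% (42.2 to 44.8) and 53.3% (51.9 to 54.7), and Cd8a without Cd8b1 in 5.75% and 4.38%. In innate-like cells, Cd8a without Cd8b1 was in 11.98% (8.70 to 15.9) of the 334 in CTRL and 16.9% (13.2 to 21.3) of the 354 in DHEA, and both were in 9.28% and 9.04%. Neither chain was seen in 62.6% and 56.5% of innate-like and in 86.2% and 74.1% of NKT- or MAIT-like cells, against 7.97% and 3.94% in clusters 0 to 3. Cd8a without Cd8b1 was about as frequent in CTRL in cluster 9 (12.98%) and in early-activated-like cells (10.7%). In DHEA it was less frequent there, at 12.4% (7.91 to 18.1) and 10.3% (5.46 to 17.4), with intervals that overlap the innate-like one. Both chains were seen in 24.4% (CTRL) and 27.5% (DHEA) of cluster 9 and in 47.6% and 55.2% of early-activated-like cells. At this depth a cell with no UMI may still express the gene.

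**Figure D3:**
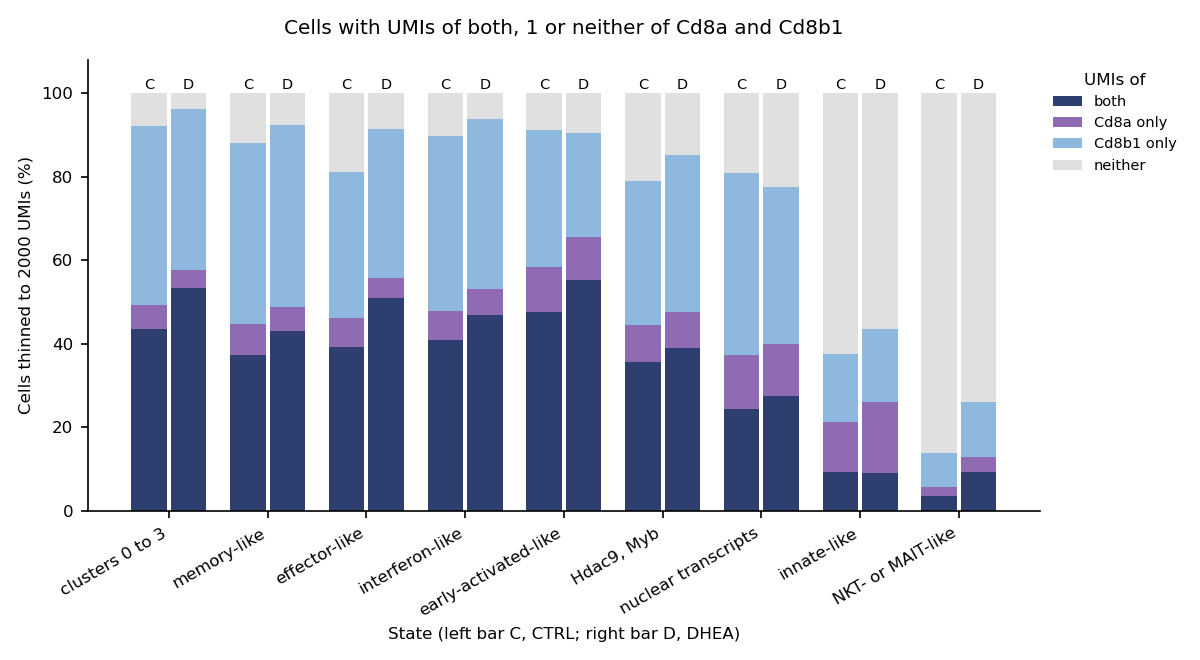
Share of cells, thinned to 2000 UMIs each, with UMIs of both, only 1 or neither of Cd8a and Cd8b1 (stacked bars, percent of cells) by state, with CTRL as the left and DHEA as the right bar of each pair. Cells with Cd8a alone take up a larger part of the innate-like bars (11.98% and 16.9%) than of those of clusters 0 to 3 (5.75% and 4.38%). For cluster 9 (12.98% and 12.4%) and early-activated-like cells (10.7% and 10.3%) this part is close to the innate-like one in CTRL and smaller in DHEA.

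The relation to Ly6c2 and Ccl5 was read in cells thinned to 1000 UMIs, taking a cell as positive with at least 1 UMI left. The genes themselves stood at 305 (CTRL) and 544 CPM (DHEA) for Ly6c2 and at 844 and 1830.0 for Ccl5. Ly6c1, a near-identical copy of Ly6c2 with which reads may be shared, had 25 and 48 UMIs. Ly6c2 was seen in 18.1% of CTRL and 33.7% of DHEA cells (39.7% and 58.8% as sequenced), and Ccl5 in 17.8% and 34.1% (31.0% and 49.7% as sequenced). Over all cells, those with Ly6c2 or Ccl5 had less of both CD8 chains and more Cd5 in each library. Cells with neither had Cd8a at 361 (CTRL) and 451 CPM (DHEA), and cells with both at 252 and 336, log2 ratios of -0.52 (-0.61 to -0.43) and -0.42 (-0.48 to -0.37). Cd8b1 went from 1058 CPM in cells with neither to 719 in cells with both in CTRL, and from 1324 to 1063 in DHEA (-0.56 and -0.32). Cd5 went from 130.4 to 179 CPM in CTRL and from 138 to 194 in DHEA (0.46 and 0.49), and Cd6 from 103 to 117 and from 92.2 to 124 (0.18 and 0.43).

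Each marker alone gave the same direction for the CD8 chains and Cd5. Ccl5-positive over Ccl5-negative cells gave log2 ratios of -0.41 in CTRL and -0.39 in DHEA for Cd8a, -0.50 and -0.31 for Cd8b1, and 0.39 and 0.36 for Cd5. For Cd6 they were 0.08 (-0.01 to 0.18) and 0.28 (0.20 to 0.36). Ly6c2-positive over Ly6c2-negative cells gave -0.27 and -0.18 for Cd8a, -0.26 and -0.11 for Cd8b1, 0.30 and 0.32 for Cd5, and 0.19 and 0.26 for Cd6. Positive cells were more often memory-like, so these differences and those between states share cells. Innate-like cells, low in both CD8 chains, were also mostly Ccl5-positive, at 95.8% in CTRL and 97.1% in DHEA. Such cells made up 323 of the 1616 Ccl5-positive cells in CTRL and 366 of the 3800 in DHEA. Cd8b1 in these Ccl5-positive innate-like cells stood at 193 (CTRL) and 244 CPM (DHEA). The part of innate-like cells in the Ccl5 differences was not tested.

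**Figure D4:**
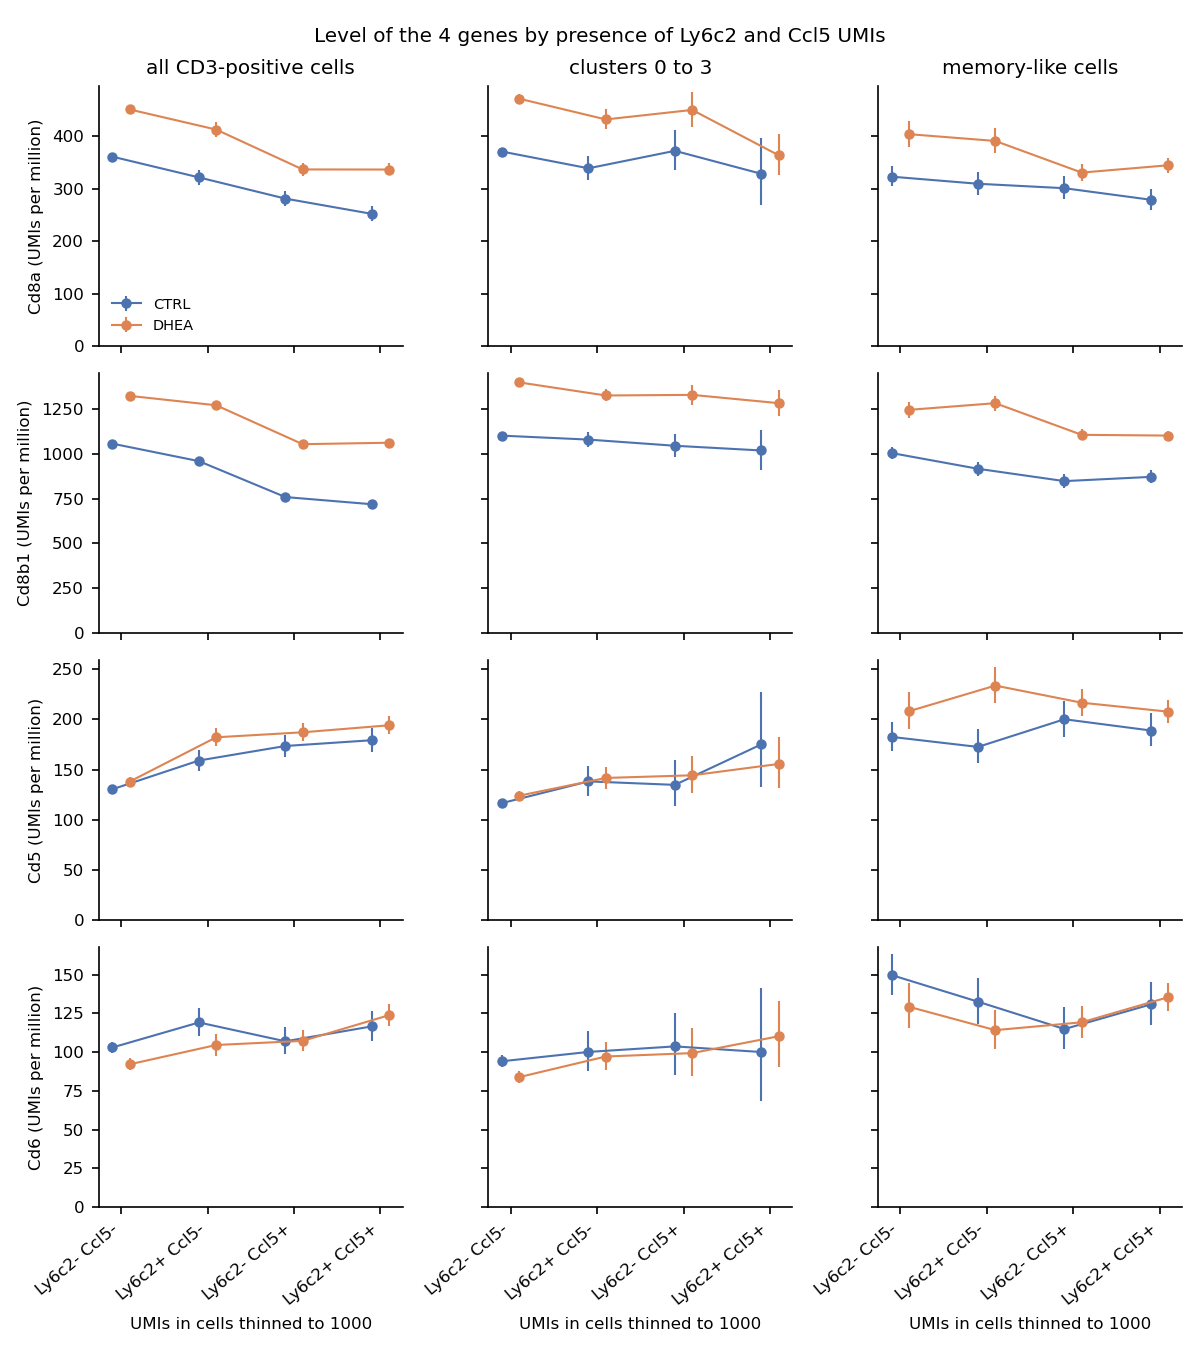
Level of the 4 genes in CPM (rows) in cells with and without UMIs of Ly6c2 and Ccl5 after thinning to 1000 UMIs, over all CD3-positive cells, clusters 0 to 3 and memory-like cells (columns), with exact 95% Poisson intervals for CTRL (blue) and DHEA (orange). Over all cells Cd5 steps up from left to right, and in memory-like cells Cd5 has no such step. The CD8 chains over all cells step down from left to right in CTRL. In DHEA they also step down, but are about level between cells with Ccl5 alone and cells with both (Cd8b1 at 1055 and 1063 CPM).

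Within clusters 0 to 3 and within memory-like cells most of these relations were smaller, and within effector-like cells those of the CD8 chains turned. In clusters 0 to 3, Ccl5-positive cells had Cd8a at a log2 ratio of -0.02 in CTRL and -0.15 in DHEA and Cd8b1 at -0.08 in each, while Cd5 stayed higher, by 0.29 (0.07 to 0.49) and 0.22 (0.07 to 0.37). Ly6c2-positive cells of clusters 0 to 3 had Cd5 higher by 0.28 (0.13 to 0.43) in CTRL and 0.20 (0.08 to 0.31) in DHEA, Cd8a lower (-0.14 and -0.16), and Cd8b1 near level (-0.04 and -0.08). In CTRL their Cd5 stood at 138 CPM in the 448 cells with Ly6c2 alone and 175 (132 to 227) in the 58 cells with both, against 117 in the 5321 with neither. In clusters 0 to 3 of DHEA, Ccl5-positive cells were shallower, with a median of 2662 UMIs against 4350 in Ccl5-negative cells. Ly6c2-positive cells there had 3363 against 4330. In CTRL the positive cells were not shallower (5318 against 5282 for Ccl5, 5929.5 against 5255.5 for Ly6c2). The part of depth in the Cd5 values of clusters 0 to 3 was not tested. In memory-like cells Ccl5 went with less Cd8a (-0.13 and -0.23) and Cd8b1 (-0.17 and -0.20), but Cd5 differed by 0.12 (-0.00 to 0.25) in CTRL and -0.07 (-0.17 to 0.03) in DHEA. Ly6c2-positive memory-like cells of DHEA differed by no more than 0.07 from Ly6c2-negative ones in any of the 4 genes, with all 4 intervals spanning zero. Cd6 was lower in Ccl5-positive memory-like cells of CTRL (-0.21, -0.36 to -0.06) and not in those of DHEA (0.09, -0.05 to 0.23).

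Effector-like cells with Ccl5 or Ly6c2 had more of the CD8 chains, not less. Cd8b1 stood at 833 CPM in the 54 effector-like CTRL cells without Ccl5 and 1186 in the 147 with it, and at 1025 in 58 and 1469 in 412 DHEA cells (log2 ratios 0.51 and 0.52). Cd8a gave 0.34 (0.09 to 0.60) and 0.18 (-0.05 to 0.40), and Cd5 1.07 (0.67 to 1.48) and 0.36 (0.01 to 0.72). Ly6c2-positive effector-like cells gave 0.49 (0.21 to 0.77) and 0.17 (-0.01 to 0.34) for Cd8a and 0.29 and 0.28 for Cd8b1. The effector-like cells without Ccl5 were deeper, with medians of 9365.5 and 6783.5 UMIs against 4704 and 4104. This cluster also held dividing cells and markers of neutrophils, myeloid cells and CD4 T cells. The part of depth, and of these other cells, in the effector-like values was not tested. In innate-like cells, of which only 14 in CTRL and 11 in DHEA were without Ccl5, those with it had less Cd8b1 (-1.04 and -1.01).

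Over steps of Ccl5 UMIs, the CD8 chains were lower at each step down to the highest. Cd8b1 stood at 1044 CPM in CTRL cells with none, then 874, 809, 674 and 599 in cells with 1, 2, 3 to 5 and 6 or more UMIs. In DHEA the same steps gave 1311, 1189, 1123, 1014 and 926. Cd8a followed, from 355 to 232 CPM in CTRL and from 441 to 310.1 in DHEA. Cd5 did not follow the steps: in DHEA it stood at 149, 179.6, 201, 206 and 182 CPM, and in CTRL at 134, 178, 186, 186 and 159. The ratio of Cd8a to Cd8b1 was 0.387 (0.353 to 0.424) in CTRL cells with 6 or more Ccl5 UMIs and 0.341 in those with none, while in DHEA it was 0.335 and 0.337. The part of innate-like cells in the Ccl5 steps and in this ratio was not tested. Over steps of Ly6c2 UMIs, Cd8a was lower from the first UMI and had no further step down, at 350.2, 290.4, 287 and 296 CPM with none, 1, 2 and 3 to 5 UMIs in CTRL and at 421, 373, 367 and 372 in DHEA. Cd8b1 stood at 1017, 875, 814 and 789 CPM over the same steps in CTRL and at 1254, 1183, 1109 and 1141 in DHEA.

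**Figure D5:**
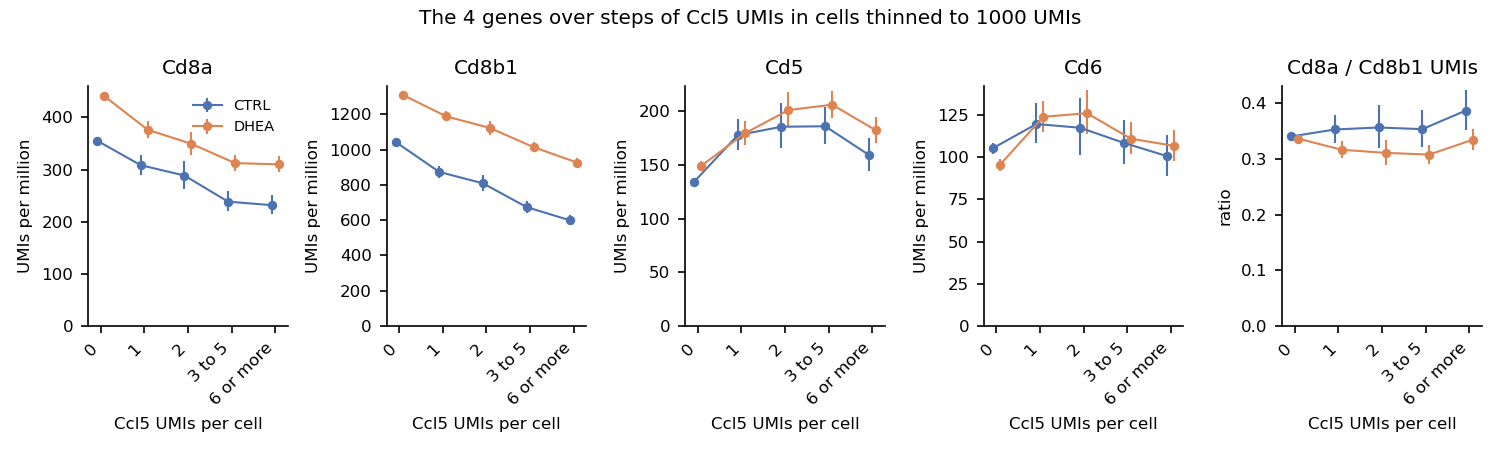
Level of each gene in CPM, and the ratio of Cd8a to Cd8b1 UMIs (right panel), in cells with 0, 1, 2, 3 to 5 and 6 or more Ccl5 UMIs after thinning to 1000 UMIs, with exact 95% intervals for CTRL (blue) and DHEA (orange). Cd8b1 goes down at each step in both libraries, and Cd5 is highest at the middle steps.

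Cell by cell, the genes went in pairs. Cells were divided by the UMIs left after thinning to 2000. Those with a Cd8b1 UMI had Cd8a at 362 CPM and those without at 242 in CTRL, and at 421 and 269.5 in DHEA (log2 ratios 0.58 and 0.64). Within clusters 0 to 3 the same contrast gave 0.32 and 0.33. Cells with a Cd6 UMI had Cd5 at 179.97 CPM and those without at 134 in CTRL, and at 207 and 154 in DHEA, 0.42 in each library. In clusters 0 to 3 the contrast was 0.40 (0.29 to 0.52) and 0.37 (0.24 to 0.50), and in memory-like cells 0.23 and 0.26. Across the pairs, over all cells, the largest contrast was that cells with a Cd5 UMI differed in Cd8a by -0.08 in DHEA, with -0.05 in CTRL. Within states the contrasts were larger in places and differed in sign. In clusters 0 to 3 of DHEA, cells with a Cd8b1 UMI had less Cd5 (-0.22, -0.39 to -0.04), and in memory-like cells of CTRL those with a Cd8a UMI had more (0.15, 0.03 to 0.28).

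The genes most like each member were sought over 27 points, the clusters of each library with at least 100 cells, by Pearson's r of log2(CPM + 1) among 5868 genes. Points of 1 library share depth and handling, and the cells were clustered by gene expression, so r is a description. Cd8b1 was the gene most like Cd8a and Cd8a the gene most like Cd8b1 (r = 0.90). Cd8a was next followed by Rabggtb (0.79) and Lcn4 (0.78), and Cd8b1 by Lcn4 (0.81) and Kif23 (0.74). Cd5 was the gene most like Cd6 (0.80), and for Cd5 only Crtam (0.83), a class I-restricted T cell-associated molecule, came before Cd6, with Eomes (0.79), a transcription factor of memory CD8 T cells, and A430093F15Rik (0.77), the gene between Cd5 and Cd6, after it. A430093F15Rik stood at 27.1 (CTRL) and 25.9 CPM (DHEA). Ikzf2, a transcription factor gene that marks the innate-like cluster, was the gene least like Cd8b1 (-0.86) and is named after its value was seen. Neither Cd5 nor Cd6 followed the CD8 chains, with r from 0.10 to 0.23, and Ly6c2 and Ccl5 gave r between -0.35 and 0.21 with the 4 genes.

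Genes that work beside these receptors were read from 9 lists over all CD3-positive cells, beside a median log2 ratio of -0.00 and 49.7% of genes higher in DHEA over all 10623. Of all 10623 genes, 1.74% were at least 1.5-fold higher in DHEA and 1.47% at least 1.5-fold lower. Of the partners of the synapse, 15 of 19 measured members were higher in DHEA (median 0.13), and 2 passed 1.5-fold, the tetraspanin Cd151 (2.29 and 3.67 CPM, 0.68) and Cd48, a ligand of SLAM family receptors (134 and 205 CPM, 0.62). Of the T cell receptor complex 6 of 7 were higher (median 0.09), with Trac at 697 and 844 CPM (0.28). Of the proximal kinases and adaptors 8 of 18 were higher (median -0.09), with the adaptor Sla at 0.43, the phospholipase Plcg1 at -0.28 and the phosphatase Ubash3b at -0.26, and none past 1.5-fold. Of the negative regulators 10 of 16 were higher (median 0.08), and the inhibitory receptor Lair1 alone passed 1.5-fold (7.49 and 11.3 CPM, 0.59).

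Regulators of the Cd8 locus were higher in 6 of 18 cases (median -0.06), with Runx3, which maintains Cd8 expression in this lineage, at 236 and 277 CPM (0.23), Tox at -0.34 and Stat5b at -0.21. The CD5 and CD6 ligand genes Cd72 (28.7 and 37.9 CPM, 0.40) and Alcam (4.24 and 4.92 CPM, 0.22) were both higher. The immediate reporters of receptor signal were higher in 4 of 12 cases (median -0.08), with Nr4a3 at -0.51, Egr3 at -0.29 and Dusp2 at -0.27, and none past 1.5-fold.

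Genes described in naive CD8 T cells of high CD5 were higher in DHEA in 9 of 10 cases (median 0.73), where Cd5 itself stood at 0.20. Past 1.5-fold upward were 6 of them, beside 1.74% of all 10623 genes. These were Ly6a (26.0 and 76.5 CPM, 1.56), the chemokine receptor Cxcr3 (39.7 and 90.7, 1.19), Ly6c2 (0.83), the transcription factor genes Tbx21 (0.83) and Eomes (0.75), and Id3 (54.1 and 88.6, 0.71). Cd200 went the other way (3.45 and 2.25 CPM, -0.62). Memory CD8 T cells also express most of this list, and memory-like cells were 1572 of 9120 in CTRL and 2914 of 11371 in DHEA. Of the Ly6 genes, 3 of 3 measured were higher, among them Ly6a and Ly6c2, which are counted above.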

How the data were processed

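Splenic CD8 T cells of 1 CTRL and 1 DHEA library were measured by 10x Genomics 3' version 3.1 chemistry. The deposited matrices hold whole-number UMI counts per gene and barcode, and the file headers name Cell Ranger 8.0.1 as the software. Seurat 4.3.0 and the build mm39 are named in the submitters' processing notes, with roles not given. Counts of 9495 and 12128 barcodes were read, and 9210 and 11671 passed at least 200 genes and under 10% mitochondrial UMIs. A UMI of Cd3d, Cd3e or Cd3g was then required, which left out 90 and 300 cells. Scrublet scores marked 0 CTRL and 1 DHEA cell as doublets, too few for the caller to have worked, so none were removed.

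The cells of both libraries were clustered together with scanpy 1.11.5 and leidenalg 0.10.2 on 2000 variable genes, 30 components centred within library and resolution 1, without the 4 genes, Cd3d, Cd3e, Cd3g, Ly6c2 and Ccl5. Clusters were named from marker lists of at least 3 detected genes after their leading genes were seen. UMIs were summed per library and state. Level intervals are exact Poisson, share and ratio intervals exact binomial (Clopper-Pearson), at 95%. Only the log2 ratio between libraries and its interval were tried on simulated data. Those data were Poisson counts, the model the interval assumes, so the trial checks the computation only. Genes with at least 200 UMIs over the groups compared were counted past 1.5-fold. Genes named beside the 4 come from the CD3 chains, Cd4, Ly6c2, Ly6c1 and Ccl5, from the 5 genes most like each member in pattern, and from the members of each list past 1.5-fold or, where none was, the 3 with the largest log2 ratio. The 4 genes, lists and comparisons were chosen with earlier results of these data known. The alternatives tried were other cell filters, thinning, weighting by state or depth, TMM factors from edgeR 4.0.16 and other clusterings.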

Additional observations from a re-analysis of the deposited data

Results flagged for a closer look

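The ratio of Cd8a to Cd8b1 UMIs stood in opposite directions between the libraries in 2 clusters, with intervals apart in each. In cluster 0, an unnamed cluster, it was 0.322 in CTRL and 0.365 in DHEA, a log2 ratio of 0.18. In memory-like cluster 5 it was 0.337 and 0.289, a log2 ratio of -0.22. With 1 library per group the difference between these clusters was not tested. Cluster 0 was the shallowest of clusters 0 to 3, with medians of 2866 UMIs per cell in CTRL and 1831 in DHEA. In clusters 0 to 3 under 2000 UMIs, Cd8a stood at 330 (CTRL) and 537 CPM (DHEA) and Cd8b1 at 1360 and 1454. Between 2000 and 4000 UMIs, Cd8a stood at 368 and 482 CPM and Cd8b1 at 1111 and 1408. The part of depth in the cluster 0 ratio was not tested.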

How the results depend on the processing

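Over 39 results and 176 alternatives, 117 values stayed within the interval of the reported value and 59 moved out of it. A total of 7 changed sign, 6 of them within memory-like cells and 1, inside its interval, for Cd6 in innate-like cells of DHEA, from -0.021 to 0.0071 when clustered without marker genes. The cause of these moves was not tested, except that the within-state settings use fewer cells. The log2 ratio of DHEA over CTRL became 0.30 for Cd8a and 0.33 for Cd8b1 without cells that had Cd4 or markers of other cells, which left 2905 and 4266 cells. Cd8a gave 0.30 thinned to 1000 UMIs and 0.30 with states weighted as in CTRL, a setting in which Cd5 gave 0.14. Cd8b1 gave 0.33 with TMM factors and 0.29 with depth ranges weighted as in CTRL. The share of genes past 1.5-fold was 19.5% with no minimum count and 1.38% with at least 1000 UMIs. The ratio of Cd8a to Cd8b1 in DHEA was 0.339 thinned to 1000 UMIs.

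For memory-like cells over clusters 0 to 3 at resolution 0.5, values in CTRL and DHEA were -0.43 and -0.52 for Cd8a, -0.49 and -0.43 for Cd8b1, 0.55 and 0.61 for Cd5, and 0.35 and 0.42 for Cd6. Cd5 in CTRL was then no longer past 1.5-fold, and Cd8a and Cd8b1 in CTRL were over 1.5 times their values at resolution 1. No innate-like class was found there, so it has no value. Clustered without marker genes, CTRL gave -0.21 for Cd8a and 0.39 for Cd6. Centred over both libraries, Cd8b1 in innate-like cells of DHEA gave -2.32.

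Within clusters 0 to 3, Ly6c2-positive cells gave -0.14 for Cd8a in CTRL, -0.036 and -0.080 for Cd8b1, 0.20 for Cd5 in DHEA and 0.084 for Cd6 in CTRL. Ccl5-positive cells gave -0.025 and -0.15 for Cd8a, -0.082 and -0.078 for Cd8b1, and 0.29 and 0.22 for Cd5. Within memory-like cells, Ly6c2 gave -0.099 and 0.0098 for Cd8a, -0.074 and 0.0026 for Cd8b1, -0.066 and 0.013 for Cd5, and -0.040 and 0.071 for Cd6. The sign changed there for Cd8a and Cd8b1 in DHEA and for Cd5 and Cd6 in CTRL. Ccl5 gave -0.13 and -0.23 for Cd8a, -0.17 and -0.20 for Cd8b1, 0.12 and, with its sign changed, -0.069 for Cd5, and, for Cd6, -0.21 with its sign changed and 0.087. With 2 UMIs needed, Ly6c2 gave -0.34 and -0.16 for Cd8b1 and 0.36 for Cd6 in CTRL, and Ccl5 -0.52 and -0.47 for Cd8a and -0.63 and -0.39 for Cd8b1. Thinned to 2000 UMIs, Ccl5 gave -0.34 and -0.31 for Cd8a and -0.41 and -0.25 for Cd8b1.

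No paired analysis was possible because each group has 1 library, and leaving a library out would leave nothing to compare. The DHEA cells were shallower, and clusters under 150 cells in a library, such as the NKT- or MAIT-like, gave wide intervals. All intervals omit the spread between animals.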
